A study of Homo sapiens with 6 samples.

Results

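The genes described here encode the subunits of oxidative phosphorylation, 104 of the 58735 genes in the deposited expression table. They were chosen by name and position alone. The rule took protein-coding genes on the mitochondrial genome, and nuclear protein-coding genes whose symbols begin with NDUFA, NDUFB, NDUFC, NDUFS, NDUFV, UQCR, COX4, COX5, COX6, COX7, COX8, ATP5 or SDH, without the assembly factors named NDUFAF or SDHAF. No measured value entered that rule. It gave 13 mitochondrially encoded and 91 nuclear-encoded members, sorted below into complexes I to V. The nuclear members include the readthrough genes NDUFC2-KCTD14 and ATP5MF-PTCD1, which join a subunit gene to its neighbour. CYC1, which encodes cytochrome c1 of complex III, does not carry one of these prefixes and was counted with the electron carriers.

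Oxidative phosphorylation takes place in the inner mitochondrial membrane. Complexes I and II pass electrons from NADH and succinate to ubiquinone, complex III passes them on to cytochrome c, and complex IV hands them to oxygen. Complex V, the ATP synthase, makes ATP from the proton gradient that complexes I, III and IV build. Except for complex II, the complexes are mosaics: a few hydrophobic subunits are transcribed from the mitochondrial genome as parts of long precursor RNAs, and the others come from separate nuclear genes, are translated in the cytosol and are imported. Ovarian cancer lines differ in how far they rely on this pathway or on glycolysis.

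Polyadenylated RNA of HEY cells, a long-established line from a human ovarian cancer, was sequenced. The design compared 3 libraries in which miR-200a, one of the miR-200 microRNAs, was overexpressed with 3 libraries carrying the empty vector. RPMI-1640 with fetal bovine serum was the medium throughout, and batch number 1 is given for all 6 libraries. As incubation times the labels give 48, 49 and 50 h for miR-200a libraries 1, 2 and 3 and 51, 52 and 53 h for vector libraries 1, 2 and 3. These climb by 1 h from sample to sample and may not be actual times; if they are, hours and group cannot be told apart. The labels do not say whether the overexpressing line is a clone or a pool, nor whether separate cultures were used within a group, so the p-values measure only how these samples vary, which may be technical.

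The libraries held 15849592 to 21003858 reads on genes. MIR200A, the precursor gene of the overexpressed microRNA, had 5, 4 and 11 reads in the miR-200a libraries and 0 reads in each vector library. Of 8 markers of ovarian carcinoma, 5 reached a mean of 1 FPKM (fragments per kilobase of gene, scaled by library size), led by KRT7, KRT8 and KRT18, while WT1 had 0.700 to 1.26 FPKM, EPCAM 0.0871 to 0.466 FPKM and MUC16 no read. Summed over the list, these markers came to 400.2 to 502 FPKM in the miR-200a libraries and to 349.9 to 388 FPKM in the vector libraries. Markers of leukocytes summed to at most 0.143 FPKM, those of muscle to at most 0.0756 FPKM, and those of erythroid cells had no read. The endothelial list was at 35.6 to 51.8 FPKM through CDH5 alone, since PECAM1, KDR and VWF had at most 0.428 FPKM in any library, and fibroblast markers summed to 0.775 to 1.51 FPKM. The part of any of these in the results below was not tested.

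The overexpressed microRNA reads target RNAs through its seed, bases 2 to 8 of the mature strand. It is shown because its complement, CAGTGTT, was searched for in the 3′ untranslated regions (UTRs) of the nuclear members; it lies at chr1:1167916-1167937 on the plus strand (RefSeq, GRCh38.p14), with the seed in capitals.
hsa-miR-200a-3p: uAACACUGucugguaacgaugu
The matches nearest the stop codon in 4 members follow, as 30 bases of the GENCODE 29 transcript on the plus strand of GRCh38, with the match in capitals. They lie at chr5:86619661-86619690, chr11:112095382-112095411, chr3:179624142-179624171 and chr11:118409187-118409216.
COX7C: tatttcaataatggcCAGTGTTtattgaat
SDHD: ttgcagaaaattagaCAGTGTTtaattttc
NDUFB5: gacattactgtctctCAGTGTTggttcaga
ATP5MG: agatttgtcaaaactCAGTGTTttctccat

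Nuclear subunit genes are known targets of the transcription factors NRF1 and YY1 and of ETS-family factors such as GABP, so 300-base promoters (250 bases before to 50 after the start, RefSeq, GRCh38.p14) were searched on both strands for CGCATGCG, AAGATGGC and CCGGAAGT, short cores of their motifs. Windows of 30 bases around a match are shown for 6 members, with the match in capitals. The first 4 hold the palindrome CGCATGCG and lie at chr10:7788145-7788174 (plus strand), chr12:53676106-53676135 (minus), chr4:674335-674364 (minus) and chr5:1801351-1801380 (plus). The last pair holds AAGATGGC, at chr1:17054004-17054033 (minus) and chr5:53560649-53560678 (plus).
ATP5F1C: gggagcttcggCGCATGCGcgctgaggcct
ATP5MC2: ggcccgggtcaCGCATGCGctgagccttcc
ATP5ME: gccgctgacggCGCATGCGtgcgcccagct
NDUFS6: cagaagccgtgCGCATGCGttagcgctaag
SDHB: cgtcaggagccAAGATGGCggcggtggtcg
NDUFS4: ttgcctgcagcAAGATGGCggcggtgtcaa

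Mitochondrially encoded transcripts made up most of the pathway's RNA in every library. Per length, the 13 genes summed to 30665, 36998 and 31257 FPKM in the miR-200a libraries (here and below in the order of libraries 1, 2 and 3) and to 33549, 37809.7 and 34535 FPKM in the vector libraries. The 91 nuclear members summed to 2278, 2751 and 2224 FPKM in the miR-200a libraries and to 2046, 2867 and 2722 FPKM in the vector libraries. The mitochondrial share of the pathway's FPKM was therefore 92.7 to 94.3%, and the groups overlapped in both sums. FPKM divides by all annotated exons of a gene, such as 14160 bases for SDHC. This share and the ratio below therefore depend on those lengths.

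By reads, mitochondrially encoded members took 2.80 to 3.35% and nuclear members 0.533 to 0.682% of a library. The ratio of the mitochondrial to the nuclear sum was 13.5, 13.5 and 14.1 in the miR-200a libraries and 16.4, 13.2 and 12.7 in the vector libraries, with means of 13.7 ± 0.344 and 14.1 ± 2.01 (SD, n = 3 each). On the log2 scale the groups differed by -0.04, against a spread of 0.14 between libraries of a group (SD). Vector library 1 was highest in this ratio and the vector libraries lay on both sides of the miR-200a libraries. As these are bulk samples, fewer cells of a kind and less RNA per cell cannot be told apart.

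**Figure D1:**
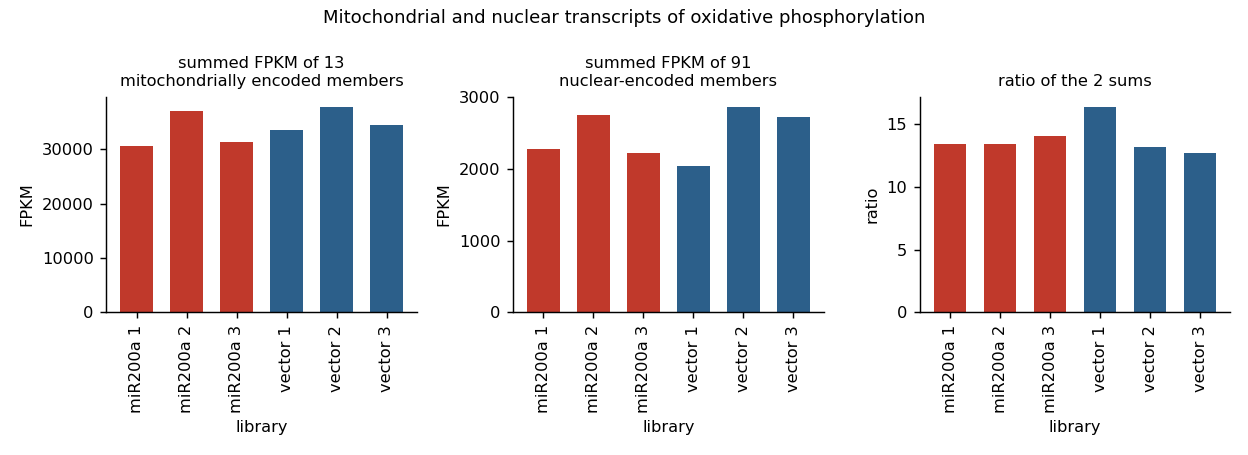
Summed FPKM of the 13 mitochondrially encoded members (left), of the 91 nuclear-encoded members (middle) and their ratio (right) in each library, 1 bar per library (red, miR-200a; blue, empty vector). The ratio lies between 12.7 and 16.4, with its highest value in vector library 1.

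The libraries did not fall into their groups over these genes. For each gene, log2(FPKM + 1) in a library was set against its mean over the 6 libraries. The median of that deviation over the 78 nuclear members that passed the filter on low values (FPKM of at least 1 in at least 3 libraries) was -0.11, 0.17 and -0.15 in miR-200a libraries 1 to 3 and -0.26, 0.20 and 0.13 in vector libraries 1 to 3. Vector library 1 was the lowest of all libraries for 50 of the 78 genes, and miR-200a library 2 or vector library 2 the highest for 60 of them.

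Seen pairwise, miR-200a libraries 1 and 3 differed by a median of 0.05 per nuclear member on the log2 scale, and miR-200a library 2 differed by 0.09 from vector library 2 and by 0.09 from vector library 3. Within the vector group, libraries 1 and 2 differed by 0.41. The mitochondrially encoded members shared the high level of miR-200a library 2 and vector library 2, one of which was highest for 11 of the 13 genes. Vector library 1 was the lowest for only 2 of these 13, and its median deviation was 0.00. The median deviations over all 12231 tested genes stayed between -0.01 and 0.01 in every library.

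**Figure D2:**
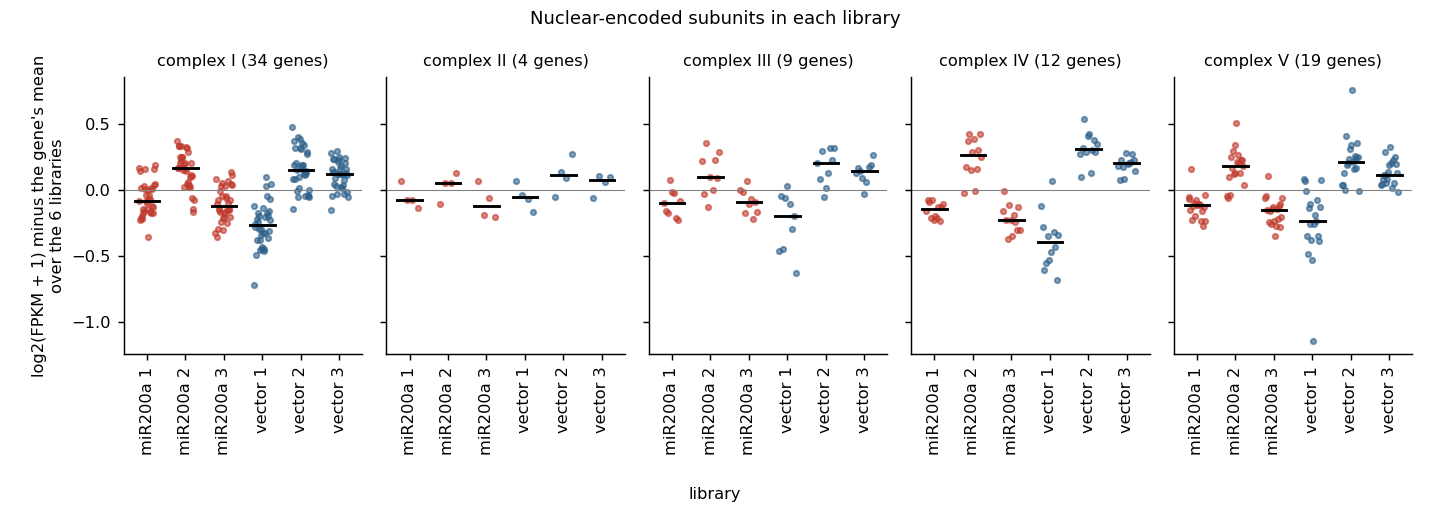
Deviation of each tested nuclear-encoded member from its own mean over the 6 libraries, on the log2(FPKM + 1) scale, by complex and library (points, genes; black lines, medians; red, miR-200a; blue, empty vector). Vector library 1 lies lowest in complexes I, III, IV and V, and its median in complex IV is -0.39 beside 0.32 in vector library 2.

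The spread of the nuclear members between libraries followed their coding length. The difference between vector libraries 1 and 2, which carry the same construct, had a median of -0.69 over the 21 members with a coding length of at most 300 bases and of -0.65 over the 25 members of 300 to 450 bases. It was -0.35 for 13 members up to 600 bases, -0.19 for 9 members up to 1000 bases, 0.00 for 6 members up to 1500 bases and 0.04 for the 4 longer ones. Spearman's rho between this difference and coding length was 0.73 across the 78 nuclear members and 0.70 across the 13 mitochondrially encoded members, as a description of 2 libraries in which all genes share depth and preparation.

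Coding genes outside the pathway went the same way over a smaller range, from -0.35 over 197 genes of at most 300 bases to 0.09 over 4682 genes above 1500 bases, with a rho of 0.47 across 10157 genes. In every length class the median of the nuclear members lay below that of the other coding genes. The longest classes held 6 and 4 members, with medians of -0.003 beside 0.013 and 0.036 beside 0.090. The members are short: their median coding length was 397.5 bases, beside 1398 bases for all tested genes that have one. The difference between the groups was less tied to coding length, with a rho of 0.17 across the nuclear members and 0.03 across other coding genes. It was tied to the GC content of the transcript, with a rho of 0.45 across the nuclear members and 0.61 across other coding genes. Over the 13 mitochondrially encoded members both went the other way, with a rho of -0.33 for GC content and -0.40 for coding length. The part of either property in the results was not tested beyond the correction given below.

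**Figure D3:**
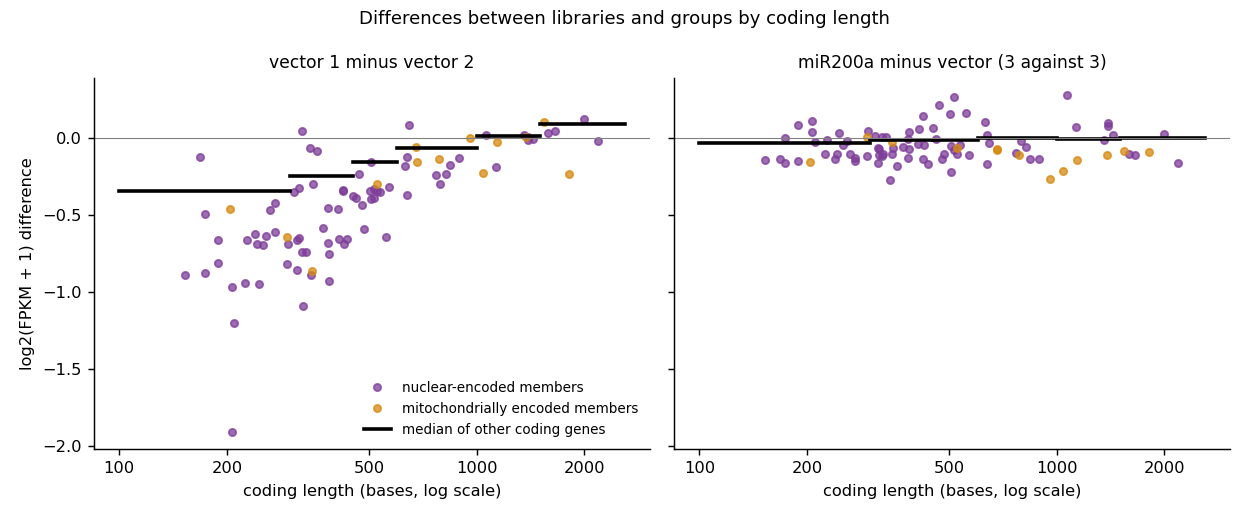
Difference in log2(FPKM + 1) against coding length (bases, log axis) between vector libraries 1 and 2 (left) and between the groups (right), for the nuclear-encoded members (purple), the mitochondrially encoded members (orange) and, as black lines over each length class, the median of the other tested coding genes; the line of the open class of the longest genes ends at the right edge of the points. On the left the points climb with length, with medians from -0.69 in the shortest class to 0.04 in the longest; on the right they lie between -0.27 and 0.28 at all lengths.

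No member of the pathway passed the test between the groups. limma on log2(FPKM + 1), with Benjamini-Hochberg adjustment across the 12231 genes tested, called 49 genes at 0.05, which is 0.401% of those tested, 35 higher and 14 lower with miR-200a. Of the members, 91 were tested, 13 mitochondrial and 78 nuclear, and 0 were called. At an unadjusted p under 0.05, 1 mitochondrial member (MT-ND1) and 2 nuclear members (COX7A2L and NDUFA10) were counted, where 13.3% of all tested genes were. limma after voom on the reads recovered from the FPKM values called 0 members too and 0.981% of all tested genes, with 1 mitochondrial and 3 nuclear members at an unadjusted p under 0.05, where 14.6% of all tested genes were.

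The groups did not overlap in 9 of the 91 members, and in 19.0% of all tested genes. Lower in all miR-200a libraries than in any vector library were 5 members (MT-ND1, COX7A2L, NDUFS1, ATP5F1A and ATP5F1B), where 10.7% of all tested genes were, and higher were 4, among them NDUFAB1, NDUFB10 and NDUFA10, where 8.29% were. Both shares of the members are below those of all genes. NDUFS1, NDUFAB1 and ATP5F1A were singled out after their values were seen.

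Most differences were small and negative. A negative log2 difference (miR-200a minus vector) was found in 12 of the 13 mitochondrial and 54 of the 78 nuclear members, and in 51.9% of all tested genes. The median was -0.09 for the mitochondrial members, -0.06 for the nuclear members and -0.01 for all tested genes. Between libraries of a group the same medians varied by 0.11 and 0.21 (SD), more than either median differed from 0. Without vector library 2 the nuclear median was 0.03, while the mitochondrial median stayed between -0.18 and -0.03 whichever single library was left out.

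**Figure D4:**
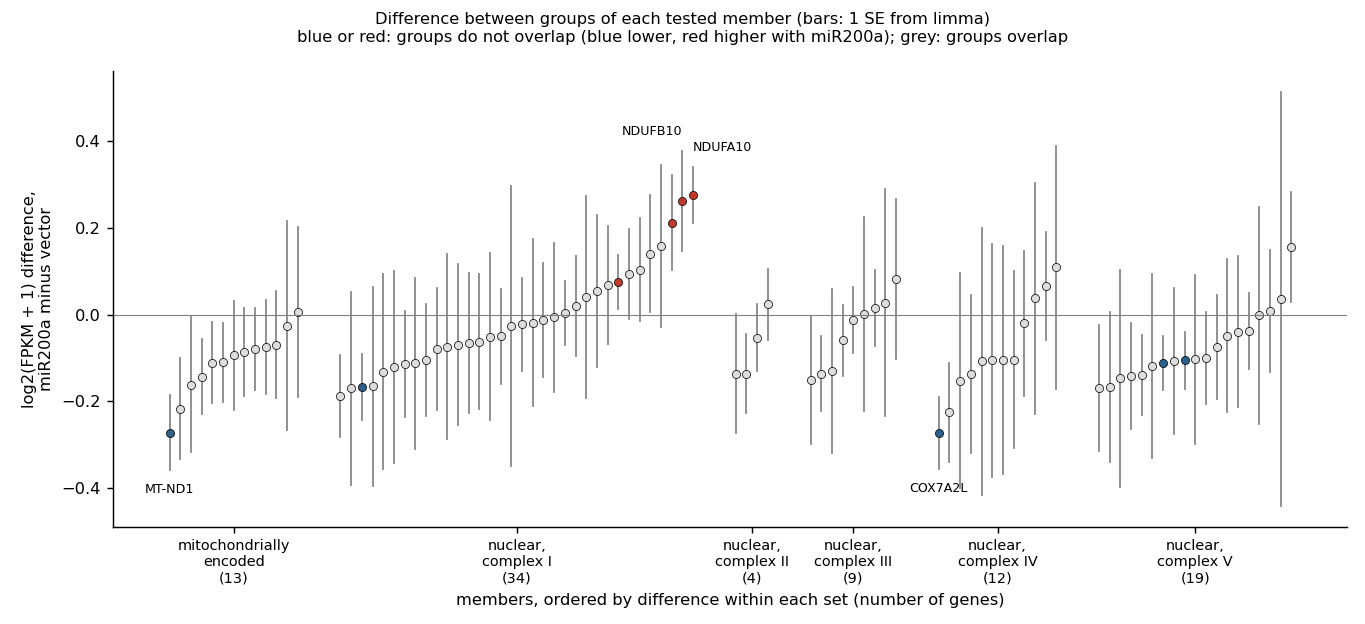
Log2 difference of each of the 91 tested members between the groups (miR-200a minus vector, log2(FPKM + 1)), ordered within complexes, with bars of 1 standard error from limma over 3 libraries against 3. Coloured points mark the 9 members whose groups do not overlap, 5 lower (blue) and 4 higher (red), with names for the 4 of them that differ by at least 0.25; all points lie between -0.27 and 0.28.

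The mitochondrial genome encodes 7 subunits of complex I, all in the membrane arm that pumps protons. By their means, their order per length was MT-ND4L, MT-ND4, MT-ND2, MT-ND3, MT-ND1, MT-ND5 and MT-ND6, and single libraries departed from it. MT-ND1 (mitochondrial genome, 3307 to 4262, plus strand), which lines the ubiquinone site, had 1145, 1273 and 1228 FPKM in the miR-200a libraries and 1524, 1529 and 1353 FPKM in the vector libraries. Every miR-200a library lay below every vector library, with a log2 difference of -0.27 (SE 0.09) and a 95% interval of -0.48 to -0.07; limma's adjusted p was 0.297, which does not pass.

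MT-ND2 had 1504, 1855 and 1472 FPKM in the miR-200a libraries and 1728, 2029.6 and 1839.6 FPKM in the vector libraries, with vector libraries 1 and 3 below miR-200a library 2, and a log2 difference of -0.22 (SE 0.12). MT-ND4 had 2818, 3298 and 2912 FPKM in the miR-200a libraries and 3341, 3329 and 3061 FPKM in the vector libraries and a log2 difference of -0.11 (SE 0.09). MT-ND4L, which is read from the same messenger RNA as MT-ND4 and overlaps it by 7 bases, had 3189, 4142 and 2972 FPKM in the miR-200a libraries and 2591, 4053 and 3697 FPKM in the vector libraries. Its ratio to MT-ND4 was 1.13, 1.26 and 1.02 in the miR-200a libraries and 0.776, 1.22 and 1.21 in the vector libraries, with means of 1.14 ± 0.118 and 1.07 ± 0.252 (SD, n = 3 each). Vector library 1 was thus low in MT-ND4L and not in MT-ND4, although a single RNA carries both.

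MT-ND3, another short gene, was also lowest in vector library 1, with 1521, 2003 and 1403 FPKM in the miR-200a libraries and 1146, 2086 and 1883 FPKM in the vector libraries. MT-ND5, at the far end of the membrane arm, had 991, 1287 and 991 FPKM in the miR-200a libraries and 1057, 1243 and 1168 FPKM in the vector libraries. MT-ND6 had 802, 1035 and 866 FPKM in the miR-200a libraries and 848, 1047 and 935 FPKM in the vector libraries; it is the subunit gene on the opposite strand of the mitochondrial genome from the other 12, and since the sources used here do not say whether counting used strand, its reads cannot be told apart from those of RNA antisense to it. Groups overlapped in all 3 genes.

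MT-CYB, cytochrome b of complex III, had 2059, 2301 and 2152 FPKM in the miR-200a libraries and 2457, 2500.4 and 2235 FPKM in the vector libraries. The log2 difference was -0.14 (SE 0.09), and vector library 3 lay below miR-200a library 2.

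The catalytic core of complex IV gave the most abundant transcripts of the pathway. MT-CO3 had 5232, 5924 and 5257 FPKM in the miR-200a libraries and 5689, 6260.2 and 5753 FPKM in the vector libraries, which was 16.7% of the mitochondrial members' FPKM on average. MT-CO1, which holds the site where oxygen is reduced, had 4193, 4994 and 4452 FPKM in the miR-200a libraries and 5176, 4819 and 4474 FPKM in the vector libraries, a share of 13.8%. MT-CO2, which takes electrons from cytochrome c, had 3852, 4791 and 4042 FPKM in the miR-200a libraries and 4252, 4743 and 4320.1 FPKM in the vector libraries, a share of 12.7%. Differences between the groups ranged from -0.11 to -0.07 on the log2 scale in these 3 genes, the groups overlapped in each, and MT-CO1 was highest in vector library 1.

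For complex V the mitochondrial genome encodes MT-ATP6, which forms the proton channel with the c ring, and the small MT-ATP8. MT-ATP6 had 2556, 3060.2 and 2729.9 FPKM in the miR-200a libraries and 2933, 3059.9 and 2802 FPKM in the vector libraries and MT-ATP8 802, 1036 and 781 FPKM in the miR-200a libraries and 806, 1110.1 and 1015 FPKM in the vector libraries. They share 1 messenger RNA and overlap by 46 bases, yet MT-ATP8 stood at 0.314, 0.338 and 0.286 of MT-ATP6 in the miR-200a libraries and at 0.275, 0.363 and 0.362 in the vector libraries. The ratio again was lowest in vector library 1, and it did not separate the groups.

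Within the mitochondrial genome the order from MT-CO3 down to MT-ND6 spanned shares of 16.7% to 2.70%. The lowest neighbours, MT-ATP8 and MT-ND6, had the same mean share of 2.70% and did not differ beyond their spread. MT-ND2 and MT-ND3, with 5.08% and 4.87%, changed places between libraries. MT-ND5 lay above MT-ND1 in miR-200a library 2, with 3.48% and 3.44%. In vector library 1 MT-ND4L (7.72%) lay below MT-ND4 (9.96%) and MT-ATP6 (8.74%), and MT-ND3 (3.42%) below MT-ND1 (4.54%). The nuclear genome also holds copies of these genes: 394 such pseudogenes are in the table, 72 had a read, and they took reads equal to 0.707 to 0.976% of those on the mitochondrial members. MTATP6P1, MTND2P28 and MTCO1P12 were the 3 that passed the filter, and the sources used here do not say how reads were split between a gene and its copy.

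**Figure D5:**
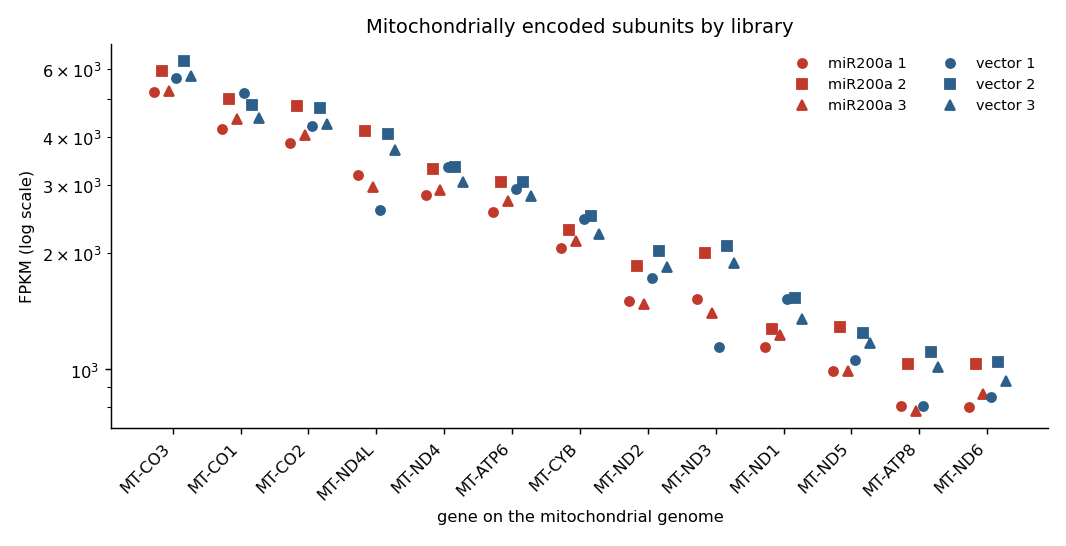
FPKM (log axis) of the 13 mitochondrially encoded members in each library, ordered by mean (red, miR-200a; blue, empty vector; circles, squares and triangles, libraries 1, 2 and 3). The squares of libraries 2 are highest for most genes, and the groups are apart in MT-ND1, with 1145 to 1273 FPKM against 1353 to 1529 FPKM.

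Complex I had 38 nuclear members, of which 34 were tested and 0 called; 21 had a negative and 13 a positive difference, with a median of -0.02. The peripheral arm holds the core subunits that carry electrons from NADH to ubiquinone. NDUFV1, which binds NADH, had 27.3, 20.999 and 25.8 FPKM in the miR-200a libraries and 22.6, 22.9 and 23.5 FPKM in the vector libraries. NDUFS1, the largest core subunit, had 11.2, 12.98 and 11.9 FPKM in the miR-200a libraries and 13.7, 13.9 and 13.1 FPKM in the vector libraries, lower in every miR-200a library, with a log2 difference of -0.17 (SE 0.08) (limma adjusted p = 0.403).

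NDUFS3, NDUFS7 and NDUFS8, which are also core subunits, had log2 differences of -0.02, 0.02 and 0.10 with overlapping groups. The core subunits were steady between libraries: the ratio of the highest to the lowest library had a median of 1.28 over the 6 tested. For the 28 tested accessory subunits, which surround the core and include most of the short genes, that median was 1.58.

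Among the accessory subunits the largest difference was that of NDUFA10 (chromosome 2, 239892450 to 240025402, minus strand), a subunit of the membrane arm on its matrix side. It had 8.95, 8.95 and 8.40 FPKM in the miR-200a libraries and 7.15, 7.05 and 7.0005 FPKM in the vector libraries. Every miR-200a library lay above every vector library, with a log2 difference of 0.28 (SE 0.06) and a 95% interval of 0.12 to 0.43; its adjusted p of 0.189 from limma was the smallest of all members.

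NDUFB10 (chromosome 16, 1959508 to 1961975, plus strand), another accessory subunit of the membrane arm, had 31.6, 31.8 and 29.3 FPKM in the miR-200a libraries and 21.4, 28.4 and 27.6 FPKM in the vector libraries, a log2 difference of 0.26 (SE 0.12) with an adjusted p of 0.386 from limma. The groups were apart, with vector library 1 the lowest. NDUFAB1, the acyl carrier protein of mitochondrial fatty acid synthesis and at the same time a subunit of complex I, had 26.3, 30.7 and 26.3 FPKM in the miR-200a libraries and 20.7, 24.7 and 26.3 FPKM in the vector libraries and a log2 difference of 0.21 (SE 0.11). The groups were barely apart, with 26.270 FPKM in miR-200a library 1 and 26.266 FPKM in vector library 3.

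The most abundant accessory subunits by FPKM were NDUFS5, NDUFB7 and NDUFA1. NDUFS5 had 176, 229.8 and 172 FPKM in the miR-200a libraries and 154, 243 and 236 FPKM in the vector libraries, NDUFB7 80.5, 83.2 and 82.2 FPKM in the miR-200a libraries and 58.04, 92.2 and 91.7 FPKM in the vector libraries and NDUFA1 40.2, 55.3 and 33.7 FPKM in the miR-200a libraries and 25.4, 59.9 and 51.9 FPKM in the vector libraries. All 3 were lowest in vector library 1, by up to 2.36-fold against the highest library in NDUFA1, and their groups overlapped. The most negative log2 differences of the accessory subunits were those of NDUFC2 and NDUFA12. NDUFC2 had 3.0002, 3.31 and 2.52 FPKM in the miR-200a libraries and 3.29, 3.57 and 3.57 FPKM in the vector libraries and a log2 difference of -0.19 (SE 0.09). NDUFA12 had 23.7, 35.5 and 21.6 FPKM in the miR-200a libraries and 22.8, 36.6 and 31.3 FPKM in the vector libraries and a difference of -0.17 (SE 0.22).

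Complex II, the succinate dehydrogenase that also serves the citric acid cycle, is encoded by 4 nuclear genes, all tested and none called by limma. SDHA, the flavoprotein, had 21.7, 19.03 and 21.7 FPKM in the miR-200a libraries and 21.7, 19.9 and 19.8 FPKM in the vector libraries. SDHB, with the iron-sulfur clusters, had 22.4, 24.6 and 20.6 FPKM in the miR-200a libraries and 22.95, 26.1 and 25.5 FPKM in the vector libraries and a log2 difference of -0.14 (SE 0.09). These catalytic subunits varied by 1.14-fold and 1.26-fold between the highest and the lowest library.

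The membrane anchors SDHC and SDHD had 7.44, 8.22 and 7.53 FPKM in the miR-200a libraries and 7.46, 8.45 and 8.26 FPKM in the vector libraries for SDHC and 23.2, 28.2 and 22.1 FPKM in the miR-200a libraries and 22.7, 31.1 and 27.5 FPKM in the vector libraries for SDHD. Their log2 differences were -0.05 (SE 0.08) and -0.14 (SE 0.14), with overlapping groups. The SDHA pseudogenes took 2089 reads beside 18749 on SDHA (11.1%), so a part of the reads of this gene may be assigned to its copies.

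Complex III had 9 nuclear members, all tested, with a median difference of -0.01 and none called by limma; 5 were negative and 4 positive. UQCRC1 and UQCRC2, the large core proteins facing the matrix, were among the steadiest genes. UQCRC1 had 60.7, 52.4 and 60.3 FPKM in the miR-200a libraries and 54.9, 55.3 and 61.1 FPKM in the vector libraries and UQCRC2 24.9, 27.04 and 23.3 FPKM in the miR-200a libraries and 25.7, 25.4 and 24.7 FPKM in the vector libraries, with log2 differences of 0.01 (SE 0.09) and -0.01 (SE 0.08). UQCRFS1, the Rieske iron-sulfur protein, had 22.7, 23.1 and 21.9 FPKM in the miR-200a libraries and 21.4, 25.4 and 24.1 FPKM in the vector libraries. The highest library exceeded the lowest by a median of 1.16-fold in the core proteins and 1.64-fold in the 6 accessory subunits.

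UQCRH, the hinge protein that binds cytochrome c1, was the most abundant of them by FPKM, with 106, 145 and 106 FPKM in the miR-200a libraries and 99.96, 154 and 139 FPKM in the vector libraries. UQCRHL, a near-identical copy of UQCRH elsewhere on chromosome 1, had 1.33, 1.92 and 1.57 FPKM in the miR-200a libraries and 1.39, 2.21 and 2.13 FPKM in the vector libraries, and the split of reads between both is uncertain. UQCRQ had 31.9, 41.8 and 30.1 FPKM in the miR-200a libraries and 21.6, 42.6 and 41.1 FPKM in the vector libraries, lowest in vector library 1, UQCR10 27.9, 35.1 and 30.03 FPKM in the miR-200a libraries and 21.5, 34.7 and 32.96 FPKM in the vector libraries, and UQCR11 3.06, 3.43 and 3.48 FPKM in the miR-200a libraries and 3.40, 3.80 and 4.08 FPKM in the vector libraries. Groups overlapped in each, and log2 differences were 0.08 (SE 0.18) for UQCR10 and -0.14 (SE 0.09) for UQCR11.

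Complex IV had 19 nuclear members, all of them accessory subunits or isoforms of one; 12 were tested, with a median difference of -0.10, 9 negative and 3 positive, and none was called by limma. COX7A2L (chromosome 2, 42333546 to 42425088, minus strand), known as SCAF1, joins complexes III and IV into supercomplexes. It had 12.7, 14.8 and 12.9 FPKM in the miR-200a libraries and 15.7, 16.4 and 17.3 FPKM in the vector libraries. All miR-200a libraries lay below all vector libraries, with a log2 difference of -0.27 (SE 0.08), a 95% interval of -0.47 to -0.08 and an adjusted p of 0.281 from limma. Unlike its paralog COX7A2, with 33.03, 50.04 and 29.7 FPKM in the miR-200a libraries and 27.2, 51.4 and 43.9 FPKM in the vector libraries, it was not lowest in vector library 1.

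COX4I1, the largest nuclear subunit, had 41.1, 45.2 and 41.1 FPKM in the miR-200a libraries and 42.1, 55.9 and 52.3 FPKM in the vector libraries and a log2 difference of -0.23 (SE 0.11), with vector library 1 inside the range of the miR-200a group. COX5A, which lies on the matrix side, had 46.7, 55.9 and 48.9 FPKM in the miR-200a libraries and 40.4, 52.9 and 51.9 FPKM in the vector libraries and a difference of 0.07 (SE 0.12). The most abundant subunits by FPKM were COX7C, COX6B1 and COX8A. COX7C had 80.01, 117 and 76.1 FPKM in the miR-200a libraries and 69.5, 123 and 114 FPKM in the vector libraries, COX6B1 65.95, 77.4 and 63.98 FPKM in the miR-200a libraries and 54.2, 85.2 and 73.8 FPKM in the vector libraries and COX8A 60.8, 90.03 and 60.8 FPKM in the miR-200a libraries and 41.2, 81.8 and 78.4 FPKM in the vector libraries. All 3 had their lowest value in vector library 1 and overlapping groups, with log2 differences of -0.15 (SE 0.25), -0.02 (SE 0.17) and 0.11 (SE 0.28).

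Several subunits of complex IV exist as ubiquitous and tissue-restricted isoforms, and in HEY the ubiquitous form carried nearly all the RNA. COX4I2, the lung form, had 1 read in vector library 1 and 0 in the other 5. COX6A2, the heart and muscle form, had 0 reads in all libraries, beside 14.8, 23.6 and 13.1 FPKM in the miR-200a libraries and 11.5, 25.6 and 19.6 FPKM in the vector libraries for COX6A1. COX7A1, the heart and muscle form of COX7A2, had 7, 4 and 4 reads in the miR-200a libraries and 5, 5 and 7 reads in the vector libraries, or 0.213 to 0.430 FPKM.

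COX6B2, a testis form, had 1 read in each of 2 libraries, and COX7B2 and COX8C, also testis forms, had none. A count of 0 in these data allows up to 3 reads per library. COX7B, the ubiquitous partner of COX7B2, had 20.1, 24.8 and 18.5 FPKM in the miR-200a libraries and 17.5, 27.5 and 25.8 FPKM in the vector libraries. NDUFA4, named as a complex I subunit and now assigned to complex IV, had 28.8, 37.1 and 25.03 FPKM in the miR-200a libraries and 24.3, 39.9 and 34.4 FPKM in the vector libraries, and NDUFA4L2, its paralog known for induction by hypoxia, had 10, 7 and 20 reads in the miR-200a libraries and 14, 15 and 17 reads in the vector libraries, with 0.156 to 0.381 FPKM.

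Complex V had 21 nuclear members, of which 19 were tested and none called by limma, with a median difference of -0.10, 16 negative and 3 positive. The F1 head holds the catalytic sites. ATP5F1B, the catalytic beta subunit, was the most abundant nuclear member of the pathway, with 282, 279.6 and 282 FPKM in the miR-200a libraries and 306, 299.7 and 302 FPKM in the vector libraries. ATP5F1A, the alpha subunit, had 26.2, 26.6 and 26.4 FPKM in the miR-200a libraries and 29.2, 28.3 and 28.3 FPKM in the vector libraries.

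In both genes every miR-200a library was below every vector library, with log2 differences of -0.11 (SE 0.06) for ATP5F1B and -0.11 (SE 0.06) for ATP5F1A, with limma adjusted p-values of 0.489 and 0.459. Both form the hexamer of the head, and per length their mean levels over the 6 libraries were 291.9 FPKM for ATP5F1B and 27.5 FPKM for ATP5F1A. The gap depends on the summed exon lengths used, 2322 bases for ATP5F1B and 10908 bases for ATP5F1A. Over all libraries the genes had 73277 and 32415 reads. ATP5F1C, the gamma subunit of the central stalk, had 52.3, 62.5 and 52.3 FPKM in the miR-200a libraries and 58.1, 63.8 and 61.96 FPKM in the vector libraries. ATP5F1D, the delta subunit of the stalk, had 22.6, 19.6 and 21.8 FPKM in the miR-200a libraries and 15.6, 20.1 and 21.8 FPKM in the vector libraries and the most positive difference of the complex, 0.16 (SE 0.13), with overlapping groups.

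The peripheral stalk keeps the head from turning with the rotor. ATP5PB had 52.6, 64.4 and 54.1 FPKM in the miR-200a libraries and 55.9, 66.2 and 61.1 FPKM in the vector libraries, and ATP5PO, the oligomycin-sensitivity conferring protein, 4.42, 6.25 and 4.52 FPKM in the miR-200a libraries and 4.84, 6.57 and 5.98 FPKM in the vector libraries. All 4 subunits of the stalk had negative differences, from -0.17 to -0.10, with overlapping groups.

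The c ring is built from 1 mature protein that 3 genes encode with different targeting peptides. ATP5MC2 had 29.6, 37.1 and 30.7 FPKM in the miR-200a libraries and 31.4, 40.3 and 36.03 FPKM in the vector libraries, ATP5MC3 21.5, 24.9 and 20.6 FPKM in the miR-200a libraries and 17.2, 28.4 and 25.04 FPKM in the vector libraries, and ATP5MC1 21.3, 28.3 and 19.01 FPKM in the miR-200a libraries and 18.9, 26.5 and 24.9 FPKM in the vector libraries. By FPKM, ATP5MC2 was the highest of the 3 in every library, and log2 differences between the groups ran from -0.14 to -0.04. That order depends on the summed exon lengths. Over all libraries ATP5MC3 had 16619 reads on 6780 bases, ATP5MC2 14644 on 3991 bases and ATP5MC1 6464 on 2615 bases.

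ATP5ME, a small subunit of the membrane part, was the least steady tested gene of the pathway. It had 6.77, 10.9 and 5.58 FPKM in the miR-200a libraries and 2.78, 13.2 and 9.53 FPKM in the vector libraries, a range of 4.76-fold between vector libraries 1 and 2, which carry the same construct, and a log2 difference between the groups of 0.04 (SE 0.48) with a 95% interval of -1.09 to 1.16. ATP5MPL had 9.53, 13.3 and 9.62 FPKM in the miR-200a libraries and 9.52, 13.8 and 13.5 FPKM in the vector libraries and a difference of -0.17 (SE 0.17). ATP5IF1, which blocks the enzyme when it would run in reverse, had 13.1, 16.2 and 12.7 FPKM in the miR-200a libraries and 12.95, 16.5 and 14.9 FPKM in the vector libraries, with a log2 difference of -0.08 (SE 0.12).

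Of the 104 members, 13 did not pass the filter on low values. Besides the isoforms above, these were ATP5MGL and the readthrough genes, with at most 3 reads over all libraries, and 3 subunits of complex I that are part of the enzyme in all tissues. NDUFV2, a core subunit with an iron-sulfur cluster, had 29, 20 and 19 reads in the miR-200a libraries and 28, 25 and 19 reads in the vector libraries. NDUFA13 had 41, 32 and 35 reads in the miR-200a libraries and 25, 26 and 33 reads in the vector libraries, and NDUFA7 had 12, 12 and 17 reads in the miR-200a libraries and 14, 13 and 14 reads in the vector libraries.

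Their exons overlap those of other annotated genes. Exons of another gene on the same strand cover 28.4% of the exon bases of NDUFV2, 21.0% of those of NDUFA13 and 32.3% of those of NDUFA7. They also cover 34.5% of those of COX8A, which had a mean of 68.8 FPKM. A pseudogene of NDUFV2 took 59 reads beside 140 on the gene. Over the 87 nuclear members with a read, the median of the mean level was 6.68 FPKM for the 26 with such an overlap and 23.2 FPKM for the 61 without, of which 5 and 4 did not pass the filter. Both sets ranged widely, from 0.00320 to 96.7 FPKM with an overlap and from 0.0114 to 291.9 FPKM without. The sources used here do not say how reads in shared exons were counted, so levels of these genes may be understated, and the part of the overlaps in the levels was not tested.

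A correction for coding length and GC content, chosen after seeing the data, changed 1 call. In each library log2 values were corrected for both properties over the 10250 tested coding genes that have them. limma then called 433 genes, 4.22% of those tested, and of the members NDUFA10, whose log2 difference was 0.31 (SE 0.05) with an adjusted p of 0.0104. The mitochondrial members remained at 0 calls and the nuclear members had this 1 of 78. Medians were -0.04 for both, and ATP5F1D, at 0.16 before, came to -0.08 (SE 0.06).

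Seed matches were fewer in the members than in other genes. The 3′ UTR of 1 transcript per gene held CAGTGTT in 7 of the 78 tested nuclear members (8.97%) and in 2023 of the 10250 tested coding genes (19.7%). The members' UTRs are short, with a median of 238 bases beside 1120 bases. The 7 were COX7C, SDHD, NDUFB5, ATP5MG, NDUFV3, SDHC with 2 matches and NDUFA9 with 4.

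None of the 7 was called by limma, and their log2 differences were -0.15, -0.14, -0.11, 0.01, 0.00, -0.05 and 0.07 in that order. Their median was -0.05, beside -0.06 for the members without a match. Over all tested coding genes the medians were -0.05 with and 0.01 without a match. The difference between the groups was tied to GC content over coding genes outside the pathway (rho 0.61). The part of GC content or UTR length in these medians was not tested. A match is a description of the letters, not a site in use.

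Promoter entries were found for 69 of the 91 nuclear members. CGCATGCG, the core of the NRF1 motif, stood in 10 of them (14.5%), in 4.27% of 8275 tested coding genes with an entry and in 2.19% of all 27305 entries. AAGATGGC, the YY1 core, stood in 11 (15.9%), against 6.04% and 3.03%, and CCGGAAGT, the ETS core, in 9 (13.04%), against 9.92% and 4.44%. No promoter held all 3 and 27 held at least 1.

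The NRF1 core was found in ATP5F1C, ATP5MC2, ATP5ME, ATP5PF, COX6A1, NDUFA8, NDUFB4, NDUFS6, NDUFS7 and SDHD, always with its first base before the start. In NDUFA8 that base was at -3, and the match ran across the start. The YY1 core lay after the start in 9 of 11 promoters, and its letters include ATG, the start codon. Members with the NRF1 core had a median log2 difference between the groups of -0.09 (10 tested) and those without it of -0.03 (51 tested), and 0 were called by limma in either set. For the YY1 core the medians were -0.08 with and -0.06 without it, and for the ETS core -0.12 and -0.05.

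Genes that build, regulate and feed the complexes were taken from lists outside the members. Of 49 assembly factors 45 were tested and 0 called by limma, with a median log2 difference of -0.02. At an unadjusted limma p under 0.05, 6 were counted, where 13.3% of all tested genes were. Those with the smallest p were COA1 at 0.28 (adjusted p = 0.209, limma), SDHAF1, which helps SDHB acquire its iron-sulfur clusters, at 0.34 (0.281) and COA7 at -0.19 (0.321). The groups did not overlap in any of these 3, which were picked by p. Over the 45 tested, 3 were lower and 5 higher without overlap, where 10.7% and 8.29% of all tested genes were.

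Of 25 genes of mitochondrial transcription and RNA processing all were tested and 0 called by limma. At an unadjusted limma p under 0.05, 2 were counted, where 13.3% of all tested genes were. Of the 25, 20 were negative, with a median of -0.10. TFB2M, the initiation factor of mitochondrial transcription, had 8.34, 10.7 and 9.67 FPKM in the miR-200a libraries and 12.1, 11.2 and 12.2 FPKM in the vector libraries, MTPAP, its poly(A) polymerase, 3.96, 4.13 and 3.63 FPKM in the miR-200a libraries and 4.41, 4.87 and 4.55 FPKM in the vector libraries, and POLRMT, the RNA polymerase, 13.5, 9.24 and 14.3 FPKM in the miR-200a libraries and 9.79, 8.78 and 10.1 FPKM in the vector libraries. TFB2M and MTPAP were lower in all miR-200a libraries, at -0.28 and -0.19 with limma adjusted p-values of 0.318 and 0.359, and POLRMT stood at 0.31 with overlapping groups. All 3 were picked by p. Over the 25 genes, 5 were lower and 1 higher without overlap, where 10.7% and 8.29% of all tested genes were.

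Other lists gave 0 calls by limma as well. At an unadjusted limma p under 0.05 they held 1 gene of replication, 0 regulators of biogenesis and 2 genes of the citric acid cycle list. They also held 0 electron carriers, 5 genes of the mitochondrial ribosome and 2 carriers. The share over all tested genes was 13.3%. For replication of mitochondrial DNA 8 of 8 genes were tested (median -0.02; smallest p for POLG, RNASEH1 and POLG2, at 0.43, -0.14 and 0.13). For regulators of mitochondrial biogenesis 8 of 10 were tested (median -0.07; NFE2L2, YY1 and ESRRA at -0.16, -0.09 and 0.17). For the citric acid cycle and pyruvate dehydrogenase 17 of 17 were tested (median -0.04; PDHA1 and FH at -0.28 and -0.27). PDHA1, the E1 alpha subunit of pyruvate dehydrogenase, and FH, fumarase, were lower in all miR-200a libraries, with limma adjusted p-values of 0.205 and 0.285. Both were picked by p. They were the only 2 of the 17 with groups apart, where 19.0% of all tested genes were.

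For electron carriers 18 of 19 were tested (median 0.00; COQ4, COQ8B and COQ7, all of ubiquinone synthesis, at 0.16, 0.18 and 0.12). For the mitochondrial ribosome 76 of 78 were tested (median -0.02; MRPS9, MRPL41 and MRPL50 at -0.22, 0.38 and -0.31). For uncoupling proteins and the carriers of adenine nucleotides and phosphate 5 of 7 were tested (median 0.00; SLC25A3, SLC25A5 and UCP2 at -0.21, -0.16 and 0.10). SLC25A3, the phosphate carrier, and SLC25A5, an ADP/ATP carrier, feed the ATP synthase and were lower in all miR-200a libraries. Their limma adjusted p-values were 0.318 and 0.374. Both were picked by p. They were the only 2 of the 5 tested with groups apart, where 19.0% of all tested genes were.

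The mitochondrial genome also carries 2 ribosomal and 22 transfer RNA genes, of which 21 were tested in all and 0 called by limma, with a median of -0.10. At an unadjusted limma p under 0.05, 4 were counted, where 13.3% of all tested genes were. Libraries were made from polyadenylated RNA, which covers transfer RNAs poorly. Not all were low: MT-TC had 1024 to 1487 FPKM, MT-TP 711 to 1043 FPKM and MT-TN 576 to 1166 FPKM. These genes lie on the minus strand. As strand use in counting is not given, their reads cannot be told apart from those of RNA antisense to them. MT-TM, the methionine transfer RNA, had 0, 2 and 1 reads in the miR-200a libraries and 7, 8 and 6 reads in the vector libraries, the smallest adjusted p of the list (0.0923, limma) on few reads. Next were MT-TI at -0.71 with 8, 5 and 7 reads in the miR-200a libraries and 12, 14 and 10 reads in the vector libraries, and MT-TL1, the neighbour of MT-ND1 on the same strand, at -0.56 with overlapping groups.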

How the data were processed

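Per the labels, polyadenylated RNA of 3 miR-200a and 3 empty-vector libraries of HEY cells was sequenced from SMARTer mRNA-Seq libraries. The authors deposited 1 table of FPKM values for 58735 genes and 6 libraries, with gene lengths that equal the summed exons of each gene. FPKM divides by these lengths, so the order of genes by level depends on them. The sources used here give no aligner, counter or strandedness. Mouse builds (GRCm38, mm10) are named in the submitters' processing notes, whereas all 58735 starts, ends and strands in the table equal those of human GENCODE 29, so coordinates are given on GRCh38. FPKM times gene length, divided by 1 factor per library, came to whole reads within 0.001 for 100% of the nonzero values, which gave the read numbers. Per kilobase, 1 read equalled 0.0475 to 0.0626 FPKM, floors are 3 reads per library, and both cover counting error only.

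Genes with FPKM of at least 1 in at least 3 libraries were tested two-sided with limma 3.58.1 in R 4.3.3 (eBayes, trend = TRUE) on log2(FPKM + 1), fitting the group alone, with Benjamini-Hochberg adjustment over all tested genes. The pseudocount of 1 shrinks differences of weakly expressed genes, and groups of genes are described by counts and medians, with no test. Coding length, GC content and 3′ UTR come from 1 GENCODE transcript per gene. The text names MIR200A, all mitochondrial members, the 3 highest and the 2 most positive and 2 most negative nuclear members of each complex, isoform groups, members with groups apart by at least 0.25, members past the threshold, and the 3 genes of smallest p in each list; some genes the rule or the counts take in are not reported by name here. Beyond the rule, core subunits, members with seed matches, members under the filter and members with groups apart were described after their values were known. The members, lists and motifs were chosen with earlier results of these data known. Alternatives were other pseudocounts, filters, scalings, voom, a replicate block, left-out libraries and a length and GC correction. Python 3.11.15 with pandas 2.3.3 and matplotlib 3.10.9 made tables and figures.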

Additional observations from a re-analysis of the deposited data

How the results depend on the processing

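No member was called in any alternative but one. Over all tested genes the count of 49 was 5 without a filter on low values, 120 with voom on recovered reads, 2 without miR-200a libraries 1 and 3 (the remaining miR-200a library being assumed to vary like the vector libraries) and 433 with the length and GC correction, which was chosen after seeing the data. Leaving out 1 library at a time gave 8 to 225 genes, with 225 without miR-200a library 2, 8 without miR-200a library 1 or vector library 3, and 9 without miR-200a library 3, vector library 1 or vector library 2. The length and GC correction gave 1 nuclear member, NDUFA10, and reversed ATP5F1D to -0.082. The mitochondrial median of -0.09 came to 0.063 without miR-200a libraries 1 and 3; the cause of none of these changes was tested. Libraries left out singly gave mitochondrial medians of -0.18 to -0.03, nuclear medians of -0.20 to 0.03 and differences in the log2 ratio of mitochondrial to nuclear sums of -0.11 to 0.08, each within 1 SD between libraries of its value from all 6 libraries. With the replicate number as a block, 69 genes were called and 0 members. Same-numbered libraries deviated together with r = 0.14, 0.37 and -0.01, so the numbers were not taken to pair the libraries. A pseudocount of 0.1, a filter of 1 FPKM in all libraries, TMM scaling and scaling to reads outside the mitochondrial genome gave 45 to 50 genes and moved neither median by more than 0.01. Of 765 recomputed values of 51 named members, 763 kept direction or differed by no more than their standard error and stayed on their side of the threshold. The planned edgeR and DESeq2 tests on recovered reads were not run, since the deposited unit is FPKM. Of the methods made for counts, only voom was applied to those reads. With 3 libraries a group the median standard error was 0.11 for mitochondrial and 0.15 for nuclear members on the log2 scale. Differences of this size or smaller could not be told from the spread, and larger ones could also fail to pass. Without the correction NDUFA10, at 0.28, had an adjusted p of 0.189 from limma.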
